A study of Sus scrofa with 18 samples.

Results

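The immunoproteasome and antigen processing genes described here are 10 genes (PSMB8, PSMB9, PSMB10, PSME1, PSME2, TAP1, TAP2, TAPBP, B2M and NLRC5), read through the histone marks on them in pig myometrium. They were found by symbol in the RefSeq annotation of Sscrofa11.1, where B2M stands for 2 gene models, so that 11 gene models of 28210 on named chromosomes were examined. Every peak reaching from 3 kb before to 3 kb after a gene model was assigned to it. H3K4me3, a mark of active promoters, and H3K27ac, a mark of active promoters and enhancers, were profiled by CUT&Tag (antibody-directed cutting of chromatin by a tethered transposase) in the myometrium of Yorkshire gilts, on the mesometrial side of the uterus. GD15M_CM is the circular muscle on day 15 of pregnancy, GD15M_LM the longitudinal muscle on day 15 of pregnancy, and CD15M_CM the circular muscle on day 15 of the estrous cycle. Each group had 2 gilts and an IgG control, and the endometrium was cut away before the layers were separated. The authors pooled both gilts before calling peaks, so 1 list stands for each tissue and mark, no difference below has a replicate check, and no test or SD is given. The paper itself tested regions for differences under a false discovery rate limit. For pregnant against cyclic circular muscle it reports far fewer differing regions in H3K27ac than in H3K4me3. Near genes whose expression differed it found no such H3K27ac region. It names PSMB9 and NLRC5 among genes with raised expression and more H3K4me3 in GD15M_CM.

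Cells cut their own proteins into peptides with the proteasome and show these on the cell surface with MHC class I molecules. After an interferon signal the catalytic subunits of the standard proteasome are exchanged for PSMB8, PSMB9 and PSMB10, which gives the immunoproteasome, and the PA28 activator formed by PSME1 and PSME2 caps its ends. The TAP1 and TAP2 transporter carries the peptides into the endoplasmic reticulum, tapasin (TAPBP) holds the transporter next to the waiting class I molecule, B2M is the light chain of that molecule, and NLRC5 is the transactivator that switches class I genes on. In the pig uterus, conceptuses of the implantation period secrete interferons, among them interferon gamma, to which these genes are known to respond.

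PSMB9 and NLRC5 were also tested by the study as reporter constructs, with promoter fragments amplified by the primers below. They are shown because they are the study's own sequences for members of this set, in lower case throughout with no base singled out. They were not placed on the genome here, and whether a fragment lies under a given peak was not examined.
PSMB9 forward: tccccgaagtcctgtgcttt
PSMB9 reverse: actggtttccgacctgggac
NLRC5 forward: gtctcgcatccacgcaagg
NLRC5 reverse: tcgtcggtgcgaccattca

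The measurement is the fold enrichment of a peak, the mark over the IgG control. The lists held 31910 to 36331 H3K4me3 peaks and 57010 to 82037 H3K27ac peaks and differed in their scale, so a peak is placed by its percentile, the percentage of peaks of the same list with a fold enrichment at or below its own. A gene is given by its strongest peak, and a difference of at least 10 percentile points is counted as higher or lower. All 11 gene models had a peak in all 6 lists, against 60.0% to 61.7% of all gene models for H3K4me3 and 61.3% to 64.9% for H3K27ac. The median percentile over the 11 models was 86.0 in GD15M_CM, 90.2 in GD15M_LM and 83.8 in CD15M_CM for H3K4me3. Over all gene models with a peak the medians were 80.9, 79.4 and 81.8. For H3K27ac the members' median was 96.1, 87.3 and 87.9, where the medians over all gene models with a peak were 86.9, 83.2 and 85.2. In GD15M_CM, 20.3% of all models with an H3K27ac peak ranked at or above the members' median. The share was 41.0% in GD15M_LM and 43.8% in CD15M_CM. For H3K4me3 it was 37.8% in GD15M_CM, 24.8% in GD15M_LM and 45.4% in CD15M_CM. Neighbouring members share peaks, so that the 11 models rest on 8 to 10 distinct strongest peaks in a list and are not independent.

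**Figure D1:**
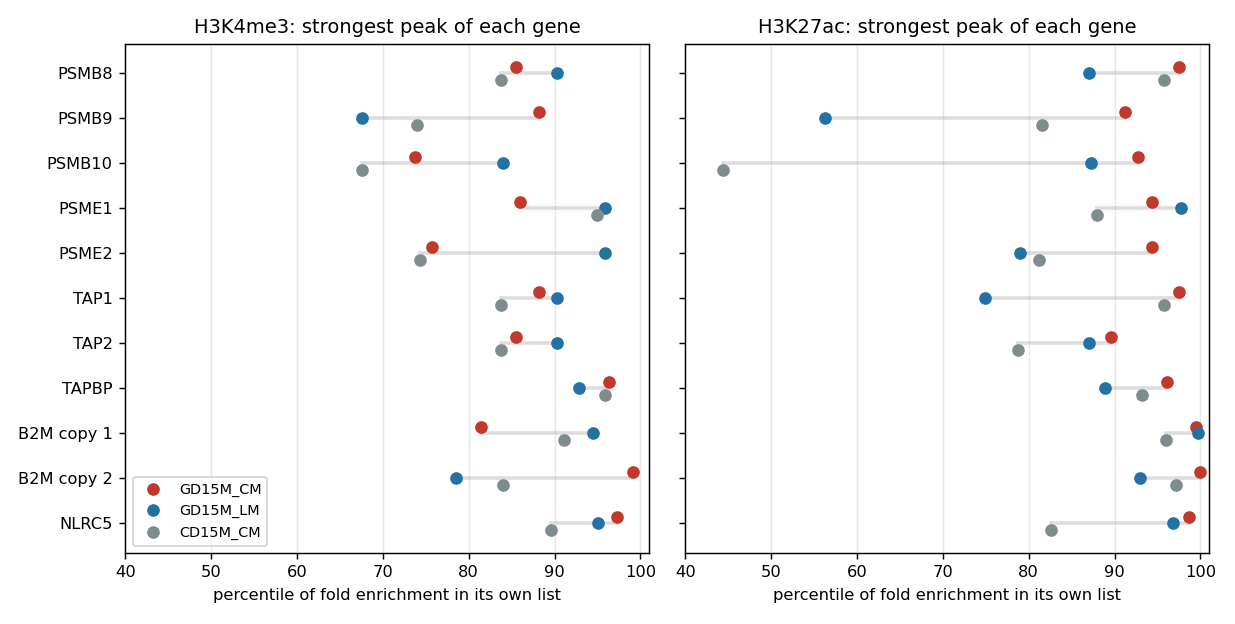
Percentile of the strongest H3K4me3 peak (left) and H3K27ac peak (right) of each gene model within its own list, with GD15M_CM in red, GD15M_LM in blue and CD15M_CM in grey (1 pooled list of 2 gilts per point, no error bar). The red point lies to the right of the grey point for 9 of 11 models in H3K4me3 and for all 11 in H3K27ac; PSMB10 in H3K27ac shows the widest gap, from 44.4 to 92.8.

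The samples carried the marks of smooth muscle: all 8 markers (such as MYH11, ACTA2 and TAGLN) had peaks of both marks in every tissue, with median H3K4me3 percentiles of 80.04 in GD15M_CM, 90.1 in GD15M_LM and 87.3 in CD15M_CM. By median difference their ranks were lower in GD15M_CM, with some markers going the other way. Against CD15M_CM, 4 of 8 were at least 10 points lower and 1 higher for H3K4me3 (median difference -10.2), and 3 were lower and 0 higher for H3K27ac (median difference -5.85). Over all gene models with a peak, 23.9% were lower and 12.4% higher by that much for H3K4me3, and 27.4% and 25.5% for H3K27ac. Against GD15M_LM, 3 smooth muscle markers were lower and 0 higher for H3K4me3, and 3 lower and 2 higher for H3K27ac, beside 20.2% and 20.9%, and 22.5% and 33.8%, of all models. The median differences there were -9.24 and -2.74 points. With 8 markers, the counts of lower H3K27ac markers are near the shares of all models.

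Markers of some other cell types differed as well. Of 6 endothelium markers, 0 were at least 10 points higher and 0 lower than in CD15M_CM for H3K4me3, with 1 and 1 for H3K27ac. Of 3 mesothelium markers with a gene model, 0 were higher and 0 lower for H3K4me3, with 0 and 2 for H3K27ac. All 6 uterine epithelium markers ranked at least 10 points higher for H3K4me3 in GD15M_CM (75.1 to 81.6) than in GD15M_LM (12.9 to 59.3), and 5 of 6 did so for H3K27ac. Of all gene models 20.9% and 33.8% did so. Against CD15M_CM, 0 of 6 were higher and 1 lower for H3K4me3, and 2 were higher and 0 lower for H3K27ac, namely CDH1 (by 71.5 points) and KRT18 (by 40.1 points). Of 5 T cell markers with a gene model, 3 ranked at least 10 points higher for H3K4me3 in GD15M_CM (51.7 to 90.9 over the list) than in CD15M_CM (47.2 to 73.2), and 0 lower. For H3K27ac 2 of the 5 were higher and 0 lower: CD2 had a peak at 65.4 in GD15M_CM and none in the other tissues, and LCK ranked 12.9 points higher, while CD3E and CD3D had no peak in any tissue. Of 6 markers of macrophages and other leukocytes, 1 was higher than in CD15M_CM for H3K4me3 (PTPRC, 61.9 against 48.2) and 1 lower (CD163, without a peak in GD15M_CM and at 60.8 in CD15M_CM), with a median difference of -0.68. For H3K27ac 2 of these were higher and 1 lower. Of all gene models, 12.4% were higher and 23.9% lower than in CD15M_CM for H3K4me3, and 25.5% and 27.4% for H3K27ac. In lists of 5 or 6 markers, the counts of higher H3K27ac markers are near that share. The part of any of these cells in the differences below was not tested, and in tissue samples more cells of a type and more mark per cell cannot be told apart.

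PSMB8, PSMB9, TAP1 and TAP2 lie in a row within the MHC region on chromosome 7. In the order of their coordinates, TAP2 runs from 25045085 to 25056915, PSMB8 from 25058456 to 25061666, TAP1 from 25062772 to 25071989 and PSMB9 from 25072133 to 25077508, with only 143 bp between TAP1 and PSMB9. TAP1 and PSMB9 are known in mammals for sharing a promoter that reads in both directions. The annotation used gives no strand, so positions are given from the lower or upper coordinate end of a gene.

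The gap between TAP1 and PSMB9 was covered by 1 peak of each mark in each tissue. PSMB9, the beta1i subunit, stood out there in GD15M_CM: the H3K4me3 peak had a fold enrichment of 19.2 in GD15M_CM, 13.3 in GD15M_LM and 15.0 in CD15M_CM, at percentiles 88.2, 67.6 and 74.0. GD15M_CM was thus 20.6 points above GD15M_LM and 14.2 above CD15M_CM. The peaks of both marks over the gap also lie in the TAP1 window, and a shared peak cannot be given to PSMB9 rather than to TAP1. By its strongest H3K4me3 peak TAP1 differed by 4.42 points from CD15M_CM and by -2.05 from GD15M_LM. In those 2 lists its strongest peak was the one over PSMB8. The H3K4me3 peak over the gap was also the longest in GD15M_CM, with 6692 bp from 25067645 to 25074336, against 4390 bp for GD15M_LM and 3532 bp for CD15M_CM, and most of the added length lay over the TAP1 gene body. Several short, weak peaks took its place there in the other lists: in CD15M_CM, peaks of 241 and 465 bp at percentiles 14.7 and 20.3, and in GD15M_LM 1 peak of 596 bp at 41.2.

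H3K27ac over the same gap showed the same order. Its fold enrichment was 5.53 in GD15M_CM, 4.00 in GD15M_LM and 4.69 in CD15M_CM, at percentiles 91.2, 56.3 and 81.6, and its length 3426, 2685 and 2642 bp. PSMB9 was therefore 34.8 points higher in GD15M_CM than in GD15M_LM and 9.57 points higher than in CD15M_CM, just under the limit for a call. A further H3K27ac peak of 435 bp at percentile 83.8, inside PSMB9, was listed in GD15M_CM only. Against GD15M_LM, both PSMB9 differences stayed at 10 points or more under all 8 alternative settings that recompute percentiles, over ranges of 12.6 to 37.1 for H3K4me3 and 11.0 to 39.2 for H3K27ac. Against CD15M_CM the H3K4me3 difference ranged from 12.5 to 32.1.

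**Figure D2:**
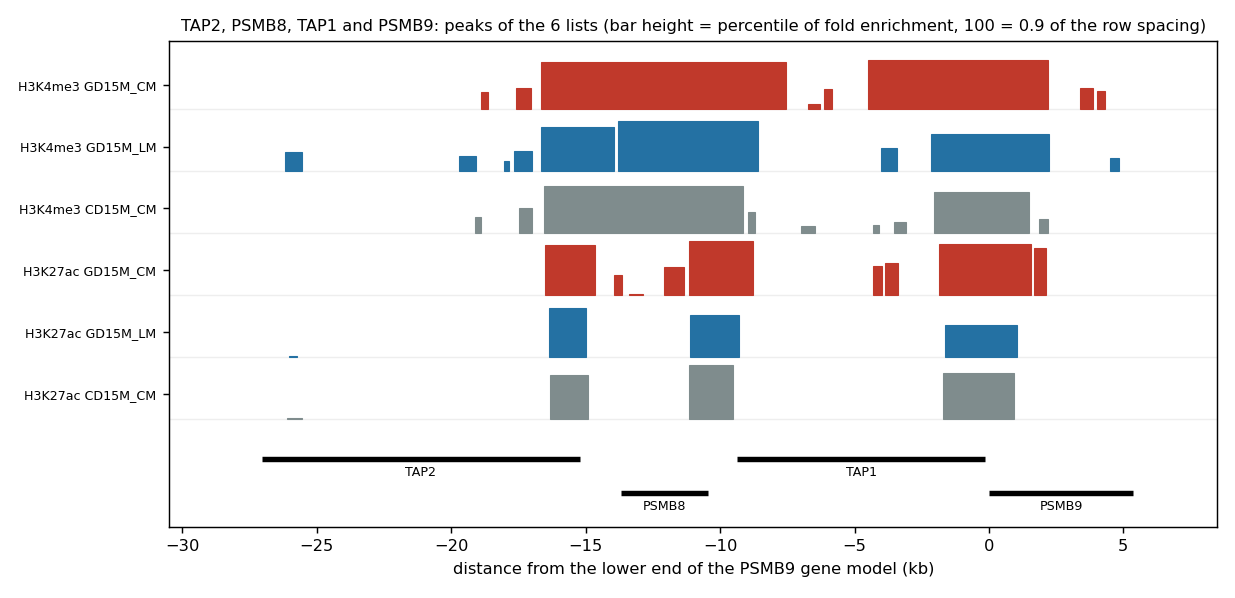
Peaks within 3 kb of TAP2, PSMB8, TAP1 and PSMB9 in the 6 lists, by distance in kb from the lower end of PSMB9; bars span each peak, their height is its percentile in its own list, and black bars are the RefSeq gene models. In GD15M_CM (red) H3K4me3 forms blocks of 9105 and 6692 bp, and both are longer than the blocks of the other tissues over the same genes.

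PSMB8, the beta5i subunit, and TAP2, the second chain of the peptide transporter, lay under one H3K4me3 domain. In GD15M_CM it was a single peak of 9105 bp, from 25055482 to 25064586, running from the upper end of TAP2 over the whole of PSMB8 to the lower end of TAP1. CD15M_CM had a peak of 7404 bp there, and GD15M_LM had a peak of 2710 bp at the end of TAP2 and another of 5201 bp over PSMB8. The fold enrichment was 17.9 in GD15M_CM, 20.6 in CD15M_CM and 25.8 for the PSMB8 peak of GD15M_LM, at percentiles 85.5, 83.8 and 90.2. For H3K4me3 the domain was thus longest in GD15M_CM, with no difference in percentile of 10 points in either comparison.

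H3K27ac was split in this domain into a peak at the upper end of TAP2 and another between PSMB8 and TAP1. At TAP2 the fold enrichment was 5.32 in GD15M_CM, 5.90 in GD15M_LM and 4.53 in CD15M_CM, at percentiles 89.6, 87.0 and 78.8, which is 10.8 points more in GD15M_CM than in CD15M_CM. Between PSMB8 and TAP1 it was 7.05 in GD15M_CM, 4.85 in GD15M_LM and 6.38 in CD15M_CM, at percentiles 97.5, 74.9 and 95.8. TAP1, the first chain of the transporter, was therefore 22.6 points higher in GD15M_CM than in GD15M_LM, and PSMB8, whose strongest peak in GD15M_LM is the one at TAP2, 10.5 points higher. TAP1 stayed at 10 points or more against GD15M_LM under all 8 alternatives, from 11.0 to 79.1. The 79.1 came with a stricter peak threshold of fold enrichment 5, under which TAP1 keeps no peak in GD15M_LM. PSMB8 was at 10 points or more under 5 of 8, with a lowest value of 6.01 when peaks were ranked by −log10 p.

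PSMB10, the beta2i subunit, lies outside the MHC on chromosome 6 from 28544910 to 28547609, next to PSKH1, CTRL and LCAT. Its H3K27ac gave the largest difference in the set. The fold enrichment was 5.75 in GD15M_CM, 5.92 in GD15M_LM and 3.37 in CD15M_CM, at percentiles 92.8, 87.3 and 44.4, so that both pregnant layers stood well above the cyclic circular muscle and GD15M_CM was 48.4 points higher. GD15M_CM and GD15M_LM had single peaks of 2273 and 2115 bp over the upper end of the gene, where CD15M_CM had peaks of 1225 and 728 bp with a break between them. The peaks of CD15M_CM nevertheless covered more of the window, 39.4% against 26.1% in GD15M_CM, since weak peaks lay at the lower side as well. The difference held at 10 points under 7 of 8 alternatives and was 3.49 points when the fold enrichment was summed over the whole window.

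For H3K4me3, PSMB10 ranked highest in GD15M_LM. Its fold enrichment was 12.8 in GD15M_CM, 21.9 in GD15M_LM and 10.9 in CD15M_CM, at percentiles 73.8, 84.0 and 67.5. The peak spanned the whole gene in GD15M_LM (4004 bp) and CD15M_CM (3339 bp) and its upper part in GD15M_CM (2430 bp). GD15M_CM thus differed from GD15M_LM by -10.2 points for H3K4me3 and by 5.49 points for H3K27ac.

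PSME1 and PSME2, the alpha and beta chains of the PA28 activator, are neighbours on chromosome 7. PSME2 runs from 75154570 to 75157871 and PSME1 from 75161830 to 75164531, and EMC9 lies between them and overlaps PSME1. PSME1 had a broad H3K4me3 peak over the whole gene in every tissue, of 4425, 4430 and 4361 bp for GD15M_CM, GD15M_LM and CD15M_CM. Its fold enrichment was 18.1, 31.3 and 29.4 in that order, at percentiles 86.0, 95.9 and 94.9, so PSME1 ranked lowest in GD15M_CM, with differences of -9.93 points from GD15M_LM and -8.93 points from CD15M_CM. Its length hardly differed between the tissues.

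For PSME2 the result depended on which peak is counted as its own. Its peak over the lower end of the gene had H3K4me3 percentiles of 71.4 in GD15M_CM, 65.7 in GD15M_LM and 73.7 in CD15M_CM. In GD15M_LM the PSME1 peak reaches into the PSME2 window, which sets PSME2 there at 95.9 and gives a difference of -20.1 points for GD15M_CM against GD15M_LM. With a window of 1 kb, or with at least 50% of the peak inside the window, GD15M_CM was 4.28 points higher instead, and 3.98 points higher when fold enrichment was summed over the window.

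H3K27ac lay over the lower end of EMC9, between both activator genes, at percentiles 94.4 in GD15M_CM, 79.0 in GD15M_LM and 81.2 in CD15M_CM (fold enrichment 6.09, 5.14 and 4.65). As the strongest peak of PSME2 it placed GD15M_CM 13.2 points above CD15M_CM and 15.4 points above GD15M_LM, and a shared peak cannot be given to PSME2 rather than to EMC9. At PSME2 itself the H3K27ac peak was 3518 bp long in GD15M_CM, at percentile 82.4. Over the same stretch GD15M_LM had peaks of 1693 bp at percentile 77.5 and 1688 bp at 13.8, and CD15M_CM peaks of 2686 bp at 37.1 and 608 bp at 38.3. At the upper end of PSME1 the order was different, with 79.0 in GD15M_CM, 97.8 in GD15M_LM and 87.9 in CD15M_CM. PSME1 ranked 6.46 points higher in GD15M_CM than in CD15M_CM only through the peak over EMC9, which lies outside PSME1. With a window of 1 kb, which leaves that peak out, the difference was -8.89.

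TAPBP, which encodes tapasin, lies on chromosome 7 from 29663491 to 29673453, apart from the TAP genes. Broad H3K4me3 lay at both ends. Over the upper end, and on over ZBTB22, the peak measured 12216, 12139 and 11768 bp for GD15M_CM, GD15M_LM and CD15M_CM, at percentiles 96.3, 82.9 and 92.4. Over the lower end, and on over RGL2, it measured 6078, 6192 and 6438 bp, at percentiles 85.3, 92.8 and 95.9. GD15M_CM was thus highest of the 3 tissues at the upper end and lowest at the lower end, and with the strongest peak of either end, no comparison reached 10 points.

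The strongest H3K27ac peak of TAPBP had percentiles of 96.1 in GD15M_CM, 88.9 in GD15M_LM and 93.2 in CD15M_CM, but not at the same place. It covered the lower end in GD15M_CM and CD15M_CM and lay inside the gene, near the upper end, in GD15M_LM. Over the lower end the percentiles were 96.1, 33.2 and 93.2 for GD15M_CM, GD15M_LM and CD15M_CM. Inside the gene near the upper end they were 95.3, 88.9 and 80.7 in that order. H3K27ac peaks covered 62.8% of the TAPBP window in GD15M_CM, 35.8% in GD15M_LM and 44.2% in CD15M_CM. At the upper edge of the window lay a stretch of H3K27ac from 29676177 to 29682171, over ZBTB22 and DAXX, whose extent was similar in all 3 tissues. It held 1 peak in GD15M_CM and 2 in each other tissue, which covered 5993, 5496 and 5192 bp in GD15M_CM, GD15M_LM and CD15M_CM, with highest percentiles of 93.0, 67.7 and 47.0.

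**Figure D3:**
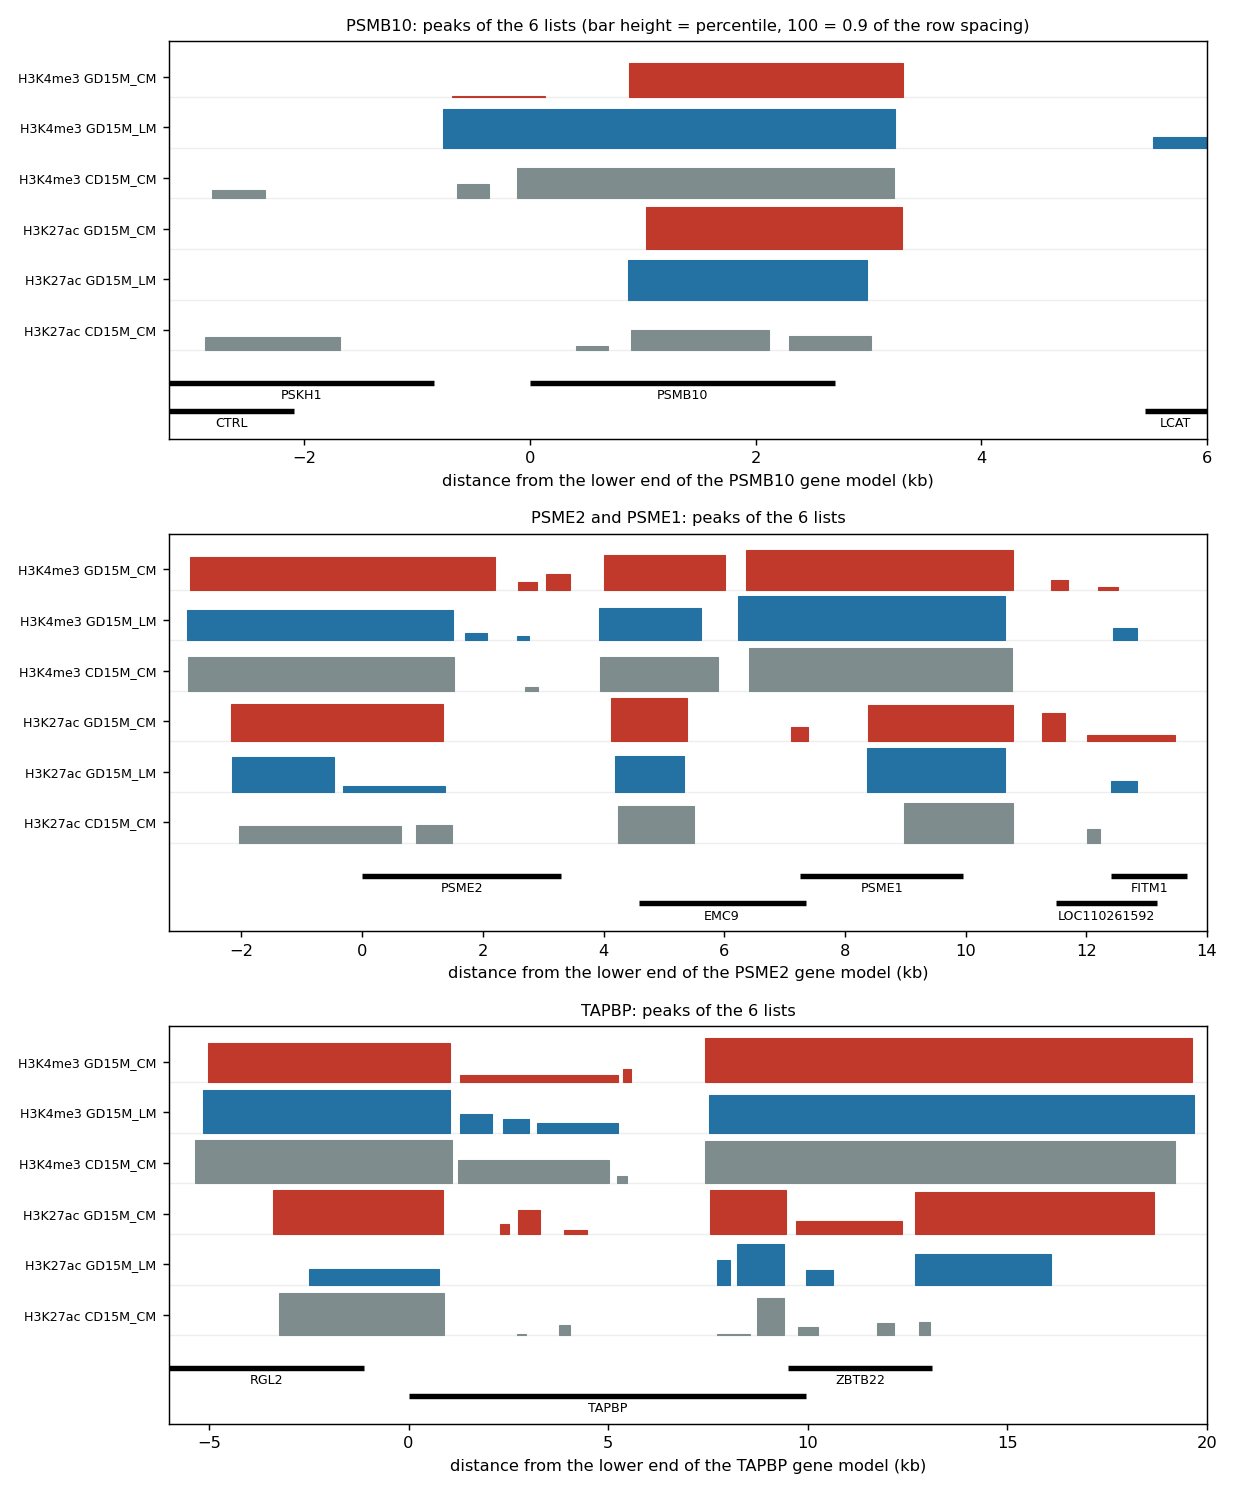
Peaks within 3 kb of PSMB10, of PSME2 and PSME1, and of TAPBP in the 6 lists, by distance in kb from the lower end of PSMB10, PSME2 and TAPBP; bar height is the percentile in the peak's own list and black bars are gene models. At PSMB10 the H3K27ac bar of CD15M_CM (grey) is broken and low, at 44.4, where those of GD15M_CM and GD15M_LM reach 92.8 and 87.3.

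B2M encodes the light chain shared by all class I molecules. Copy 1 (gene 110255236) lies on chromosome 1 from 126837721 to 126844043 and copy 2 (gene 397033) from 126865767 to 126878501, with 21723 bp and a long non-coding RNA gene between them. Each copy had a pair of H3K4me3 peaks, a short one followed by its main peak, and the starts of the pair were 1061 bp apart at copy 1 and 1057 bp apart at copy 2 in GD15M_CM. In GD15M_LM these distances were 953 and 1186 bp, and in CD15M_CM 937 and 1198 bp, so that the starts were spaced alike at both copies in GD15M_CM only. The gap between the peaks of a pair was 501 and 494 bp in GD15M_CM, 381 and 435 bp in GD15M_LM, and 339 and 376 bp in CD15M_CM. Measured so, the copies were closer to each other in GD15M_LM and CD15M_CM than by their starts. The authors removed reads of low mapping quality, which takes out reads that match both copies alike, and the effect of this on the peaks was not tested. The split of the signal between the copies is therefore uncertain.

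B2M carried the strongest H3K27ac of the set. At copy 1 the fold enrichment was 8.97 in GD15M_CM, 10.5 in GD15M_LM and 6.43 in CD15M_CM, at percentiles 99.5, 99.7 and 96.0. At copy 2 it was 12.8, 6.78 and 6.76, at percentiles 99.99, 93.0 and 97.1. Copy 2 in GD15M_CM thus stood at the very top of its list, although no difference reached 10 points, the other lists being near the top as well.

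For H3K4me3 the copies went opposite ways. Copy 1 had a fold enrichment of 16.1 in GD15M_CM, 29.6 in GD15M_LM and 25.7 in CD15M_CM, at percentiles 81.4, 94.5 and 91.1. Copy 2 had 32.0, 18.97 and 20.6, at percentiles 99.1, 78.5 and 83.9. GD15M_CM was therefore lowest at copy 1, with differences of -13.1 points from GD15M_LM and -9.71 from CD15M_CM, and highest at copy 2, with differences of 20.7 and 15.2 points. The main peak of copy 2 lies more than 3 kb from both ends of its gene model, so with windows of 3 kb around the ends it drops out and the difference from GD15M_LM turns to -32.2.

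NLRC5 is a long gene on chromosome 6, from 18933179 to 19036288. Its main peak of both marks began 3184 to 3819 bp inside the lower end of the gene model. For H3K4me3 the fold enrichment was 27.1 in GD15M_CM, 30.2 in GD15M_LM and 24.5 in CD15M_CM, at percentiles 97.3, 95.0 and 89.6, and the length 4568, 4594 and 3778 bp. Both pregnant layers were close to each other and above CD15M_CM, by 7.69 points for GD15M_CM.

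The H3K27ac difference was larger. NLRC5 had a fold enrichment of 7.82 in GD15M_CM, 7.81 in GD15M_LM and 4.74 in CD15M_CM, at percentiles 98.7, 96.8 and 82.6, and the peak was 4571, 2694 and 1685 bp long. GD15M_CM was 16.1 points above CD15M_CM, at 10 points or more under all 8 alternatives, from 16.1 to 89.0, and 1.89 points above GD15M_LM. The 89.0 came with a stricter peak threshold of fold enrichment 5, which drops the CD15M_CM peak. With windows of 3 kb around the gene ends the main peak drops out. The difference of 70.1 points there rests on a weaker peak of GD15M_CM, so neither of these alternatives rechecks the main peak. GD15M_CM listed 9 H3K27ac peaks in the NLRC5 window, against 2 in each other tissue. One of the added peaks, of 1195 bp at percentile 70.1, lay 307 to 1501 bp inside the lower end, and 4 weaker ones at percentiles of 21.7 to 39.0 lay 58102 bp or more into the gene.

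**Figure D4:**
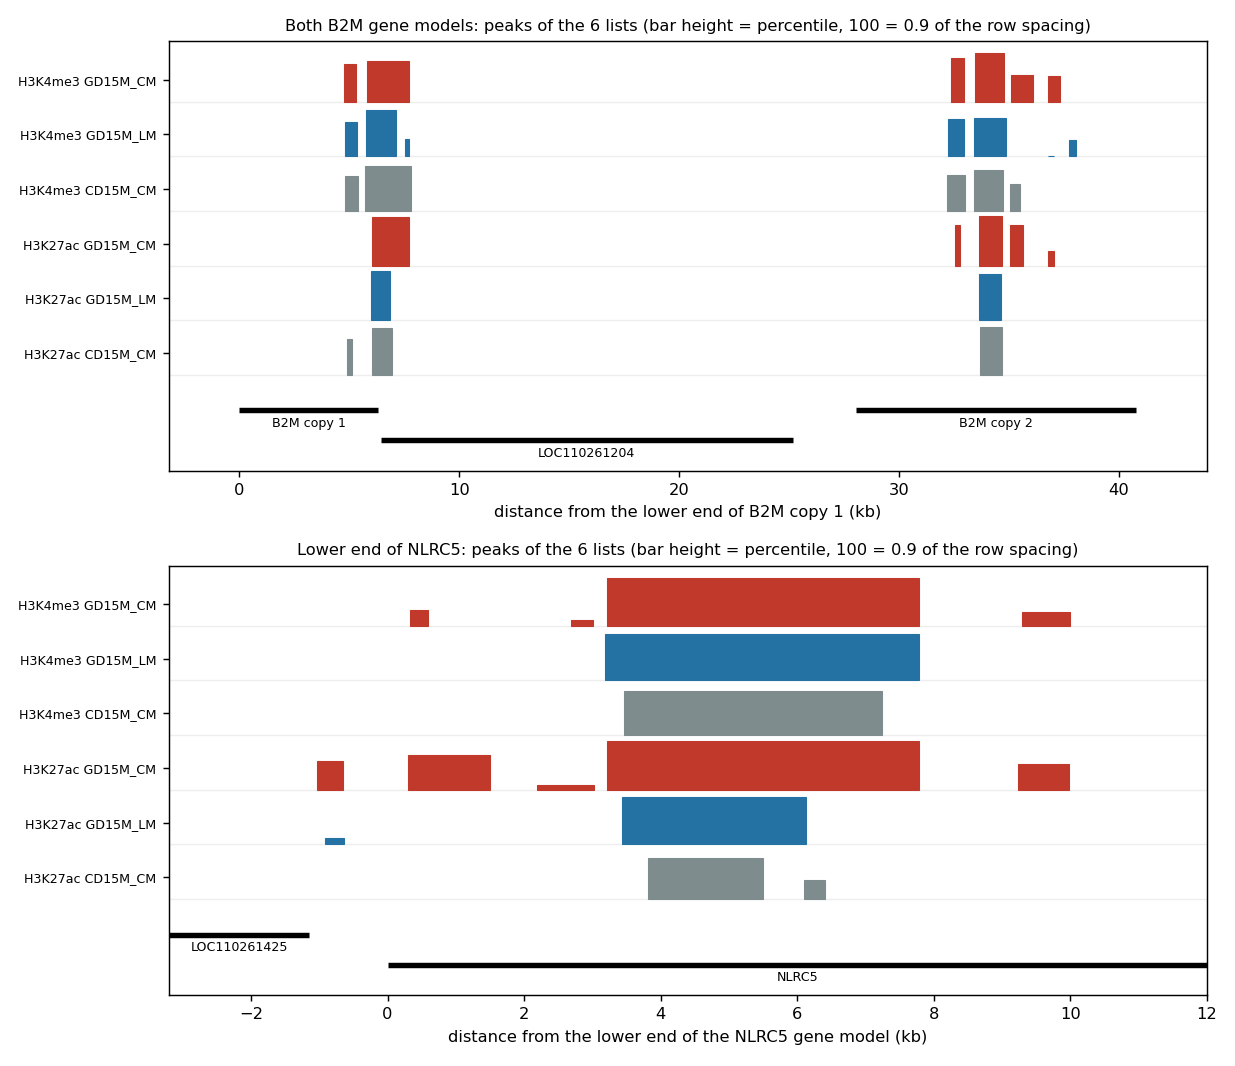
Peaks at both B2M gene models (top, distance in kb from the lower end of copy 1) and at the lower end of NLRC5 (bottom, distance in kb from its lower end; peaks deeper in the gene are not drawn) in the 6 lists; bar height is the percentile in the peak's own list. At B2M the H3K4me3 bar of GD15M_CM (red) is low at copy 1 (81.4) and tall at copy 2 (99.1), and at NLRC5 the H3K27ac peak of GD15M_CM is the longest, at 4571 bp.

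Counted over all 11 models, GD15M_CM ranked above CD15M_CM for H3K4me3 in 9 models by any amount, where 40.7% of all models did so. At least 10 points higher were 2 models, B2M copy 2 and PSMB9, beside 12.4% of all models, and 0 models were lower by that much, beside 23.9%. For H3K27ac all 11 ranked higher in GD15M_CM by some amount, where 49.2% of all models did, but PSME1 turned to -8.89 with a window of 1 kb. The H3K27ac models at least 10 points higher were PSMB10, NLRC5, PSME2 and TAP2, 4 of 11 beside 25.5% of all models, and 0 were lower beside 27.4%. The median difference was 1.71 points for H3K4me3 and 6.46 for H3K27ac, against -2.13 and -0.15 over all models. With 11 models, the counts past 10 points are near the background. The number of H3K27ac calls moved with the setting, from 11 with a stricter peak threshold to 2 when peaks were ranked by −log10 p. The 0 lower models for H3K4me3 moved as well. They became 2 with the stricter threshold, 3 with peaks under 1 kb apart merged and 2 with at least 50% of the peak inside.

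Against the longitudinal layer the marks parted. For H3K4me3, 2 of 11 models were at least 10 points higher in GD15M_CM than in GD15M_LM (B2M copy 2 and PSMB9), beside 20.9% of all models, 3 were lower (PSME2, B2M copy 1 and PSMB10), beside 20.2%, and 4 were higher by any amount, where 51.7% of all models were. The median difference was -4.76 points, against 0.40 over all models. For H3K27ac, 4 were higher (PSMB9, TAP1, PSME2 and PSMB8), beside 33.8% of all models, and 0 were lower, beside 22.5%, with 9 of 11 higher by any amount, where 57.2% of all models were. The median difference was 7.02 points against 2.30. The 0 lower models for H3K27ac became 2 with the stricter peak threshold and 1 with a window of 1 kb. Both comparisons use the GD15M_CM lists, so they are not independent of each other. The uterine epithelium markers were higher in GD15M_CM in this comparison for both marks, with median differences of 19.6 points for H3K4me3, where the members' median was lower in GD15M_CM, and 56.5 for H3K27ac, where it was higher. Of 5 T cell markers, 2 were at least 10 points higher than in GD15M_LM and 0 lower for H3K4me3, and 1 and 0 for H3K27ac. The 6 markers of macrophages and other leukocytes gave 1 higher and 1 lower for H3K4me3, and 2 and 1 for H3K27ac. The 6 endothelium markers gave the same counts. Of 3 mesothelium markers, 1 was higher and 0 lower for H3K4me3, and 1 and 1 for H3K27ac. Of all models 20.9% and 20.2% did so for H3K4me3, and 33.8% and 22.5% for H3K27ac.

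**Figure D5:**
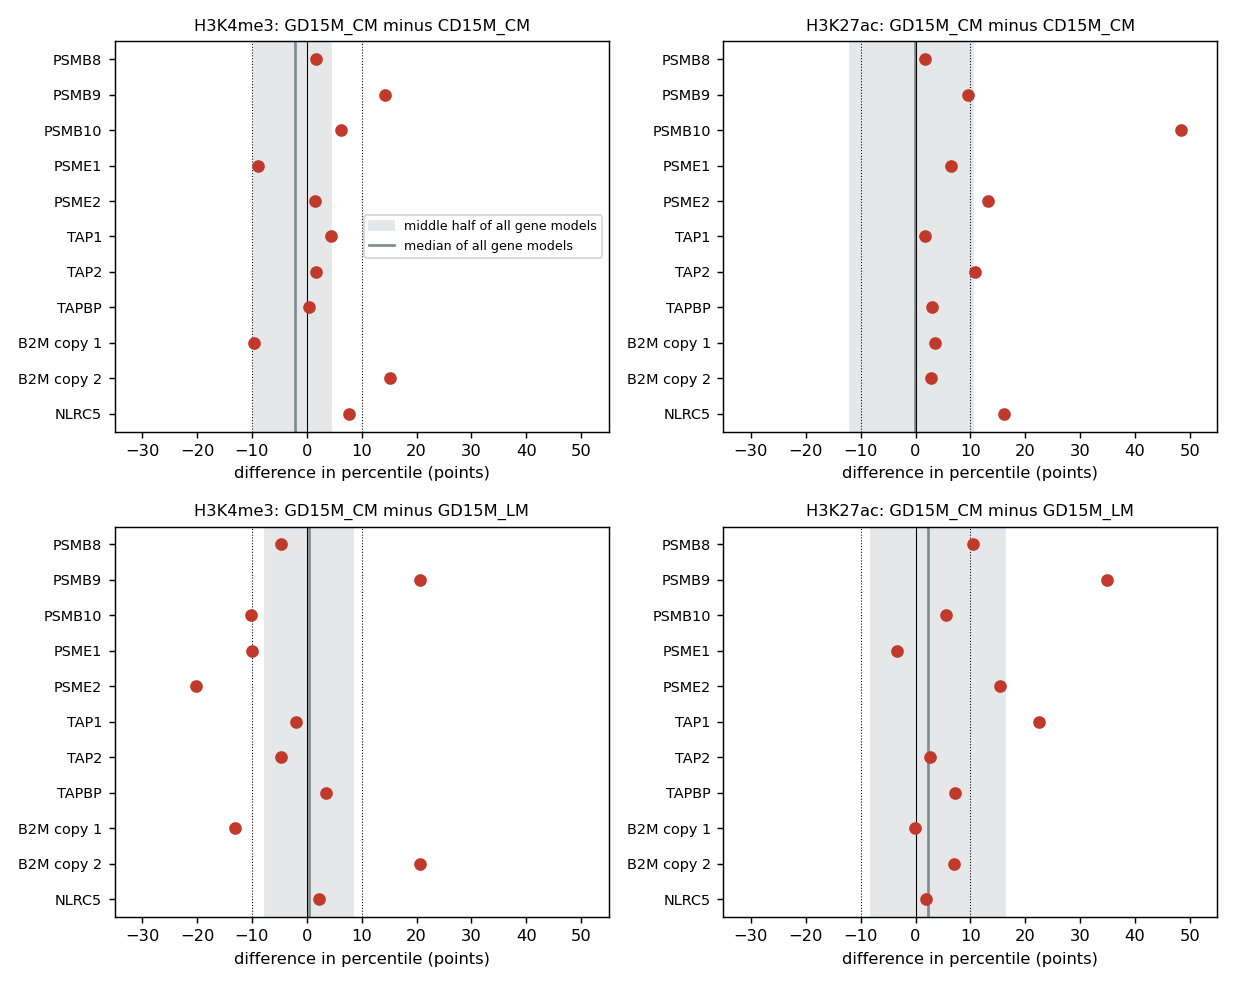
Difference in percentile of the strongest peak for each gene model, GD15M_CM minus CD15M_CM (top) and GD15M_CM minus GD15M_LM (bottom), for H3K4me3 (left) and H3K27ac (right); the grey band spans the quartiles of all gene models with a peak in either list, the grey line is their median, and dotted lines mark 10 points. In the H3K27ac panel against CD15M_CM all 11 points lie right of 0 and PSMB10 lies at 48.4, beyond a band from -11.9 to 10.4.

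GD15M_CM also differed in the extent of the marks. H3K27ac peaks covered a larger share of the window in GD15M_CM than in CD15M_CM for 10 of 11 models, all but PSMB10, where 44.8% of all models did, and the share was at least 1.5 times as large for 6 of 11, beside 14.1%. These were B2M copy 1, B2M copy 2, NLRC5, PSMB8, TAP1 and PSME1, with NLRC5 the highest at 4.73 times. Against GD15M_LM the H3K27ac share was larger for all 11 models, where 71.9% of all models did so, and at least 1.5 times as large for 7, beside 35.8%. For H3K4me3 the share was larger for 9 of 11 in either comparison, beside 26.8% against CD15M_CM and 39.4% against GD15M_LM, and at least 1.5 times as large for 2 against CD15M_CM (NLRC5 and PSMB9), beside 3.41%, and for 0 against GD15M_LM, beside 7.13%.

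Over all windows of the members, H3K27ac covered 20.5% of the sequence for GD15M_CM, 11.9% for GD15M_LM and 12.5% for CD15M_CM. The same shares around all gene models were 4.07%, 3.17% and 4.47%. Those windows include gene models without a peak and genes of other lengths, so the levels of the shares cannot be compared between the sets. Of the length under H3K4me3, 67.9% was also under H3K27ac in GD15M_CM, 48.1% in GD15M_LM and 50.4% in CD15M_CM, where all gene models gave 67.3%, 57.4% and 63.6%. The members' H3K4me3 domains were thus as widely acetylated as those of other genes in GD15M_CM, and less widely in the other tissues. Merged across the tissues, the members' H3K27ac peaks formed 41 regions, of which 15 held a peak in all 3 tissues, 19 in GD15M_CM only, 0 in GD15M_LM only and 3 in CD15M_CM only. Around all gene models 33.4% of the H3K27ac regions held a peak in all 3 tissues, 21.2% in GD15M_CM only, 5.15% in GD15M_LM only and 19.4% in CD15M_CM only. The peaks of the regions found in GD15M_CM only had percentiles of at most 83.8, the value of the short peak inside PSMB9.

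The genes whose products work beside the members were examined as 3 lists. Of 17 genes of the standard proteasome and its activators, 1 ranked at least 10 points higher in GD15M_CM than in CD15M_CM for H3K4me3 and 6 ranked lower, with 3 and 5 for H3K27ac. Of all models 12.4% and 23.9% did so for H3K4me3, and 25.5% and 27.4% for H3K27ac. Their median differences were -6.54 and 1.11 points. The higher one for H3K4me3 was PSMB2 (19.5 points), and the lowest differences were those of PSME4, another proteasome activator, at -18.3, PSMA2 at -17.1 and POMP, a proteasome assembly factor, at -16.7. Against GD15M_LM, 4 were higher and 4 lower for H3K4me3, beside 20.9% and 20.2% of all models, and 8 higher and 4 lower for H3K27ac, beside 33.8% and 22.5%.

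The standard catalytic subunits, which PSMB8, PSMB9 and PSMB10 replace, were singled out after their values were seen. PSMB5, the counterpart of PSMB8, differed between GD15M_CM and CD15M_CM by -8.40 points for H3K4me3 and 2.58 for H3K27ac. PSMB6, the counterpart of PSMB9, differed by 3.003 and -15.8 points. PSMB7, the counterpart of PSMB10, differed by -6.54 and -51.7 points, its H3K27ac percentile being 14.9 in GD15M_CM, 74.8 in GD15M_LM and 66.6 in CD15M_CM. For H3K27ac, PSMB7 and PSMB10 thus differed by a similar number of points in opposite directions. PSMB9 and PSMB6 also differed in opposite directions, by 9.57 and -15.8 points. PSMB8 differed by 1.70 points, in the direction of PSMB5. The PSMB10 difference was 3.49 points when fold enrichment was summed over the window, and PSMB7 was not recomputed in that way.

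Of 8 genes that help load peptides in the endoplasmic reticulum, 1 was higher (HSPA5, 15.9 points) and 1 lower (TAPBPL, -19.5) in GD15M_CM than in CD15M_CM for H3K4me3, with 2 higher and 3 lower for H3K27ac. Over all models the shares were 12.4% and 23.9% for H3K4me3, and 25.5% and 27.4% for H3K27ac. ERAP1, the peptidase that trims peptides to length, differed by -26.5 points between GD15M_CM and GD15M_LM for H3K4me3 (72.0 against 98.5). No common direction was seen in this list.

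Of 15 regulators of class I genes, 3 ranked at least 10 points higher in GD15M_CM than in CD15M_CM for H3K4me3 and 0 lower, with 5 higher and 2 lower for H3K27ac. Beside the shares of all models, 12.4% and 23.9% for H3K4me3 and 25.5% and 27.4% for H3K27ac, the counts of higher regulators are near the background. The higher ones for H3K4me3 included NFYC (16.7 points), a subunit of the factor NF-Y, and IRF9 (16.1), a transcription factor of the interferon type I signal. IRF9 had H3K4me3 percentiles of 88.9 in GD15M_CM, 65.8 in GD15M_LM and 72.8 in CD15M_CM, and there, as for PSMB9, GD15M_CM stood alone. For H3K27ac the higher ones included NFKB1, with a peak at percentile 76.9 in GD15M_CM and none in the other tissues, and IRF8 (24.2 points). NFKB1 had no H3K4me3 peak in any tissue, and the IRF8 peaks were weak, at 35.0 in GD15M_CM and 10.8 in CD15M_CM. Against GD15M_LM, 4 regulators were higher and 0 lower for H3K4me3, beside 20.9% and 20.2% of all models, led by RFX5 (27.2 points), a DNA-binding factor of the complex through which NLRC5 acts.

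Over the 6 lists, the gene models outside the set with percentiles near the members' medians included MCU, at a Euclidean distance of 5.16 points, ELF1 (5.25), MTERF4 (5.72) and the proteasome subunit PSMD8 (5.73).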

How the data were processed

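CUT&Tag libraries of H3K4me3, H3K27ac and IgG (18 in all, 2 gilts per group) had been mapped by the authors to Sscrofa11.1, with reads of mapping quality under 25 and duplicates removed, and peaks called on pooled gilts against IgG. The submitters' processing notes name BWA 0.7.17-r1188, SAMtools 1.9, Picard 2.8.3 and MACS2 2.2.6. The deposited lists give the fold enrichment of each peak as a ratio of mark over IgG, its length, and 2 columns with unreadable names. One holds −log10 p, as in the authors' own peak table, and was used to rank peaks as an alternative. The other, taken for the deposited −log10 q, was not used. The lists hold no read counts, so the depth behind a peak is unknown and no counting interval is given.

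Gene models were matched by symbol in the RefSeq table of Sscrofa11.1, which has no strand. Peaks overlapping a gene model or its 3 kb flanks by 1 bp were assigned to it, a gene without a peak was given percentile 0, and differences of at least 10 points were counted beside the same count over all gene models with a peak in either list. All members are named, with up to 3 genes per direction of each pathway list, the neighbours that share a peak, and the 5 nearest profiles, except that some genes this rule names are not reported here. The assignment was checked on simulated data: 0 of 1600 windows differed. Python 3.11.15, pandas 2.3.3, NumPy 2.4.6 and Matplotlib 3.10.9 were used. The members, lists and settings were chosen with earlier results of these data known.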

Additional observations from a re-analysis of the deposited data

How the results depend on the processing

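No paired analysis was possible because each list comes from the pooled libraries of both gilts, and for the same reason no replicate could be left out. Each count of members higher in GD15M_CM was recomputed. Against CD15M_CM, the H3K4me3 count of 2 became 5 with a stricter peak threshold (10 for −log10 p, 5 for the fold enrichment), 4 for differences of at least 5 points, 0 for at least 20 points and 1 without the B2M gene models, an alternative chosen after seeing the data. The H3K27ac count of 4 became 11 with the stricter threshold, 2 when ranked by −log10 p and 1 for at least 20 points. Against GD15M_LM, the H3K4me3 count of 2 became 1 without the B2M gene models. The H3K27ac count of 4 became 2 when ranked by −log10 p, 7 for at least 5 points and 2 for at least 20 points. The cause was not tested, other than what follows by construction. A smaller or larger limit admits more or fewer genes. The stricter threshold drops the strongest CD15M_CM H3K27ac peaks of NLRC5 (fold enrichment 4.74), PSMB10 (3.37), TAP2 (4.53), PSMB9 (4.69) and PSME2 (4.65). These models then have percentile 0 in CD15M_CM, and among them PSMB9 alone was under 10 points as reported. Of 352 recomputed differences of single gene models, 22 changed sign. Among differences of at least 10 points 4 did so: B2M copy 2 against GD15M_LM in H3K4me3 to -32.2 with windows around the gene ends, where its main peak drops out, and PSME2 in the same comparison to 4.28 with the smaller window, 4.28 with 50% of the peak inside and 3.98 for the area over the window, where the PSME1 peak counts less or not at all. The other 18 were under 10 points as reported, and 5 of them passed 10 points in the other direction. Against CD15M_CM in H3K4me3 these were TAP2 (1.71 to -45.5) and TAPBP (0.47 to -10.5) with 50% of the peak inside and PSME2 (1.40 to -13.8) with peaks under 1 kb apart merged. Against GD15M_LM they were TAP1 in H3K4me3 (-2.05 to 11.9) ranked by −log10 p and TAP2 in H3K27ac (2.56 to -17.2) with the stricter threshold.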
